A study of Homo sapiens with 4 samples.

Results

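The cytosolic ribosomal protein genes were examined in an m6A-seq experiment on MDA-MB-231, a cell line of human breast cancer of the triple negative type. Members were protein-coding genes with a symbol of RPL or RPS and a number, with or without a suffix letter, together with RPLP0, RPLP1, RPLP2 and RPSA. Pseudogenes and the ribosomal S6 kinases were not included. This gave 86 of the 20052 protein-coding genes of RefSeq, or 0.429%. The 4 libraries were all made from poly(A) RNA of cells labelled shNS. In 2 of them RNA fragments carrying N6-methyladenosine (m6A) had been immunoprecipitated, and the other 2 were input RNA. For both immunoprecipitated libraries the treatment entry mentions YTHDC1, but the titles and the protocol give m6A as the target, and the titles were followed. All libraries came from 1 cell line and had been combined into 1 list of 20261 peaks, which are regions with more reads after immunoprecipitation than in the input. There were thus no replicate values, and no spread between replicates could be given for any number here.

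The proteins of the cytosolic ribosome are made in equimolar amounts and assembled with ribosomal RNA into a small subunit, which decodes mRNA, and a large subunit, which forms peptide bonds. Their mRNAs are short, stable and among the most abundant in growing cells, and most begin with a 5′ terminal oligopyrimidine (TOP) tract, through which mTOR signalling and LARP1 control their translation. m6A is placed on nascent mRNA by the METTL3 and METTL14 methyltransferase, mostly within long internal exons and near the stop codon.

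The TOP tract is the sequence feature these genes share. It was sought in the RefSeq start sequences on GRCh38.p14, as a C followed by at least 4 further pyrimidines that began within 5 bases of an annotated start. Of the 69 ribosomal protein genes with a start sequence, 55 (79.7%, 95% Wilson interval 68.8 to 87.5%) had such a tract, against 28.0% of the 15842 protein-coding genes with one. The share was 77.8% (14 of 18) for members with a peak (interval 54.8 to 91.0%) and 80.4% (41 of 51, 67.5 to 89.0%) for those without. Starts are shown for 4 members with strong peaks, for RPS29, which has peaks and no tract at its annotated start, and for 4 members with no peak. Each runs from 10 bases before the annotated start to 20 bases from it, 5′ to 3′, and capitals mark the tract. They are examples only, and tract length was not compared between members with and without a peak. Members with neither a peak nor a tract, such as RPL9 and RPS26, are not shown.
RPL36, chr19:5690285-5690314, plus strand, with a peak: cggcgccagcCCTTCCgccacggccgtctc
RPL4, chr15:66504836-66504865, minus strand, with a peak: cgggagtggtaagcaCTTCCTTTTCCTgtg
RPL29, chr3:51995876-51995905, minus strand, with a peak: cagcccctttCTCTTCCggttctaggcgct
RPS14, chr5:150449720-150449749, minus strand, with a peak: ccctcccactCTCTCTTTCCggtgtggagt
RPS29, chr14:49598691-49598720, minus strand, with a peak and no tract: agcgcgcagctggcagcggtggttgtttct
RPLP0, chr12:120201092-120201121, minus strand, no peak: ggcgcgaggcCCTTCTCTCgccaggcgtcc
RPL39, chrX:119791611-119791640, minus strand, no peak: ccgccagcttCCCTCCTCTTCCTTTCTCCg
RPS19, chr19:41860245-41860274, plus strand, no peak: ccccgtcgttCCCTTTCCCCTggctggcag
RPL7A, chr9:133348208-133348237, plus strand, no peak: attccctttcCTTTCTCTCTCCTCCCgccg

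Few ribosomal protein genes carried an m6A peak. At least 1 peak was listed for 22 of the 86 genes (25.6%, interval 17.5 to 35.7%), whereas 40.8% of all protein-coding genes had one (8173 of 20052, 40.1 to 41.4%). Peaks at or under the median score of the list were found on 9 of the 86 genes (10.5%), against a background of 26.6%. The score is the authors' deposited value, read as the p-value of immunoprecipitated RNA against input, although it may be an FDR. The median over all peaks was 5.2e-08, and peaks with smaller scores are called stronger here. The list holds no expression values and no read counts, so the cell line could not be checked against marker genes. A gene without a peak is therefore not shown to lack m6A.

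The peak list holds more peaks on the minus strand, with 72.2% of the peaks of protein-coding genes there, so shares were compared within each strand. Strand was known for 69 members. On the plus strand 9 of 42 ribosomal protein genes had a peak (21.4%, interval 11.7 to 35.9%), against 29.3% of all plus-strand protein-coding genes. On the minus strand 9 of 27 had one (33.3%, 18.6 to 52.2%), against 55.6%. The members' interval included the background share on the plus strand and lay below it on the minus strand. Among the 17 members not in the start table, 4 had a peak (23.5%). By the strand of the peaks themselves, 10 members had 14 plus-strand peaks and 12 members had 17 minus-strand peaks.

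Large subunit genes had a peak in 16 of 52 cases (30.8%, interval 19.9 to 44.3%) and small subunit genes in 6 of 34 (17.6%, 8.35 to 33.5%). These intervals overlapped. Against the 40.8% of all protein-coding genes, the large subunit interval included that share and the small subunit interval lay below it. Of the 9 paralogs and chromosome Y copies, which have an L or Y suffix, RPL7L1 alone had a peak, and without these genes the share was 27.3% (21 of 77).

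Ribosomal protein genes are short, and gene span went along with the share of genes with a peak. The median span was 5092 bases (772 to 27723), against 24098 bases for all protein-coding genes. Among the 3273 protein-coding genes no longer than 5092 bases, 24.7% had a peak (23.3 to 26.3%), a value inside the members' interval. The 43 longer members exceed every gene in that set. Among the 10749 protein-coding genes up to the longest member span, 35.9% had a peak, just above the members' interval (17.5 to 35.7%). By strand the genes up to 5092 bases had a peak in 20.3% and 33.2% of cases on the plus and minus strands, beside the members' 21.4% and 33.3%. The limit of 5092 bases was chosen after the data had been seen. The genes up to that limit could not be restricted to expressed genes, since the list holds no expression values. Whether the members differ from expressed genes of like span was therefore not tested. A peak at or under the list median was found in 10.5% of the members and 17.0% of the short genes. The part of span in the difference from all genes was not tested. Within the members, 10 of the 43 shorter genes (23.3%) and 12 of the 43 longer genes (27.9%) had a peak, with overlapping intervals.

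**Figure D1:**
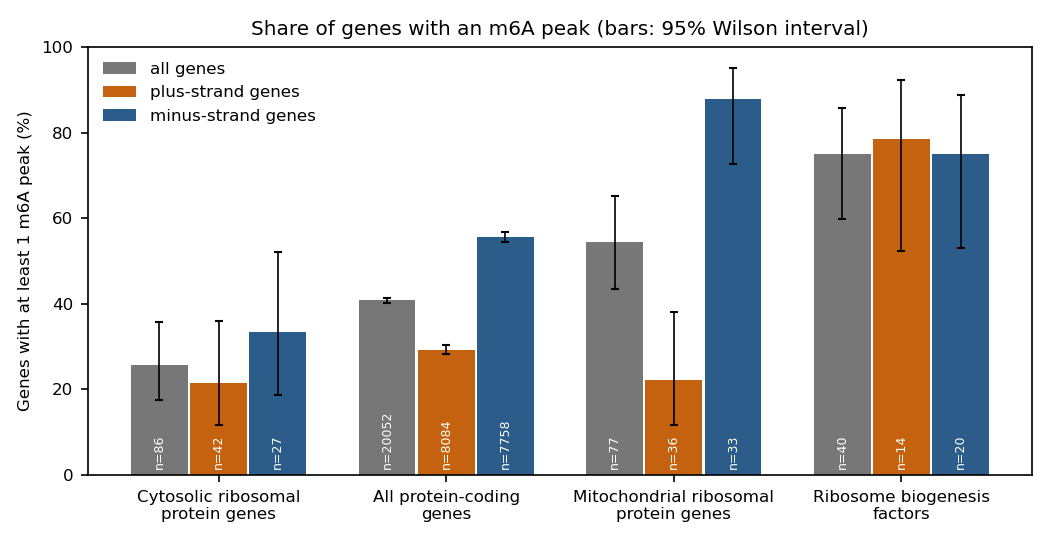
Share of genes with at least 1 m6A peak (%, y axis) for ribosomal protein genes, all protein-coding genes, mitochondrial ribosomal protein genes and ribosome biogenesis factors, with bars for all genes, plus-strand and minus-strand genes, 95% Wilson intervals as error bars and the number of genes in each bar. The ribosomal protein genes stand at 25.6%, 21.4% and 33.3%, and the mitochondrial ribosomal protein genes reach 87.9% on the minus strand.

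Genes with related functions were counted in the same way. The mitochondrial ribosome is built from nuclear-encoded proteins of the MRPL and MRPS families, and 42 of these 77 genes had a peak (54.5%, interval 43.5 to 65.2%). Their share was 22.2% (8 of 36) on the plus strand and 87.9% (29 of 33) on the minus strand. All protein-coding genes had a peak in 40.8% of cases, with 29.3% on the plus and 55.6% on the minus strand. On the minus strand the mitochondrial interval (72.7 to 95.2%) lay above this background and above the interval of the cytosolic ribosomal protein genes (18.6 to 52.2%). On the plus strand the 2 families had nearly the same share. The mitochondrial family had a median span of 8618 bases and a TOP tract in 23.2% of its 69 genes with a start sequence. Ribosome biogenesis factors, which process ribosomal RNA and assemble the subunits, had a peak in 30 of 40 cases (75.0%, 59.8 to 85.8%), against 40.8% of all protein-coding genes. Their shares were 78.6% on the plus and 75.0% on the minus strand, and their median span was 22985 bases. The regulators of TOP mRNAs had one in 12 of 17 cases (70.6%, 46.9 to 86.7%), against the same 40.8%. MTOR, LARP1 and TSC1 were among those with a peak, and EIF4EBP2, RPS6KB2, RPS6KA1, CNBP and TSC2 had none. By strand a peak was listed for 4 of 8 regulators on the plus and 6 of 7 on the minus strand. The median span of the regulators was 45265 bases. Both lists thus had longer spans than the cytosolic ribosomal protein genes, and the part of span in their shares was not tested.

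Translation factors and other mRNAs with a TOP tract were closer to the background, with a peak on 7 of 17 genes (41.2%, interval 21.6 to 64.0%). EEF2, the elongation factor that moves the ribosome along mRNA, had 2 peaks, the stronger listed at 0, which is a score too small to be stored. TPT1, a tumour protein with a TOP mRNA, had 1 peak, also listed at 0. NAP1L1, a histone chaperone, had 4 peaks (smallest score 4.0e-32), and VIM, the intermediate filament protein vimentin, had 1 (5.0e-27). The initiation factors EIF3H, EIF3L and EIF4B had 1, 2 and 3 peaks, with smallest scores of 1.3e-08, 1.1e-07 and 2.6e-06. No peak was listed for EEF1A1, EEF1B2, EEF1D, EEF1G, EIF3E, EIF3F, EIF4A2, PABPC1, HNRNPA1 or NPM1. Among ribosomal proteins outside the symbol rule, FAU, a fusion of a ubiquitin-like protein to a small subunit protein, had 2 peaks (6.3e-16), RPL36AL had 1 listed at 0, and RACK1 had none. By the sequence rule alone, 28.0% of the 15842 protein-coding genes with a start sequence had a TOP tract. These had a peak in 44.4% of cases (1974 of 4442), against 42.2% of all 15842.

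The 22 genes had 31 peaks, and most had a single one. One peak was listed for 16 genes (72.7%, against 45.1% of all protein-coding genes with a peak), and the mean was 1.41 peaks per gene against 2.10. Within the plus strand the mean was 1.40 against 1.66, and within the minus strand it was 1.42 against 2.33. RPS29 had 4 peaks and RPL37 had 3. The list is made of 2 successive parts, of 19516 and 745 peaks. By a count made after seeing the data, the first part alone held 27 of the 31 peaks. Some peaks of both RPS29 and RPL37 came from the second part. The median spliced length was 180 bases (60 to 600), against 211. By strand it was 165 against 181 bases on the plus and 181 against 241 bases on the minus strand. The median score was 8.10e-06 against 1.00e-08, and 11 of the 31 peaks (35.5%, interval 21.1 to 53.1%) were at or under the list median, against 52.7%. Within the minus strand this held for 52.9% of the members' peaks (9 of 17, interval 31.0 to 73.8%) and 60.9% of all. Within the plus strand it held for 14.3% (2 of 14, 4.01 to 39.9%) and 31.4%. Both intervals included the background share of their strand.

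**Figure D2:**
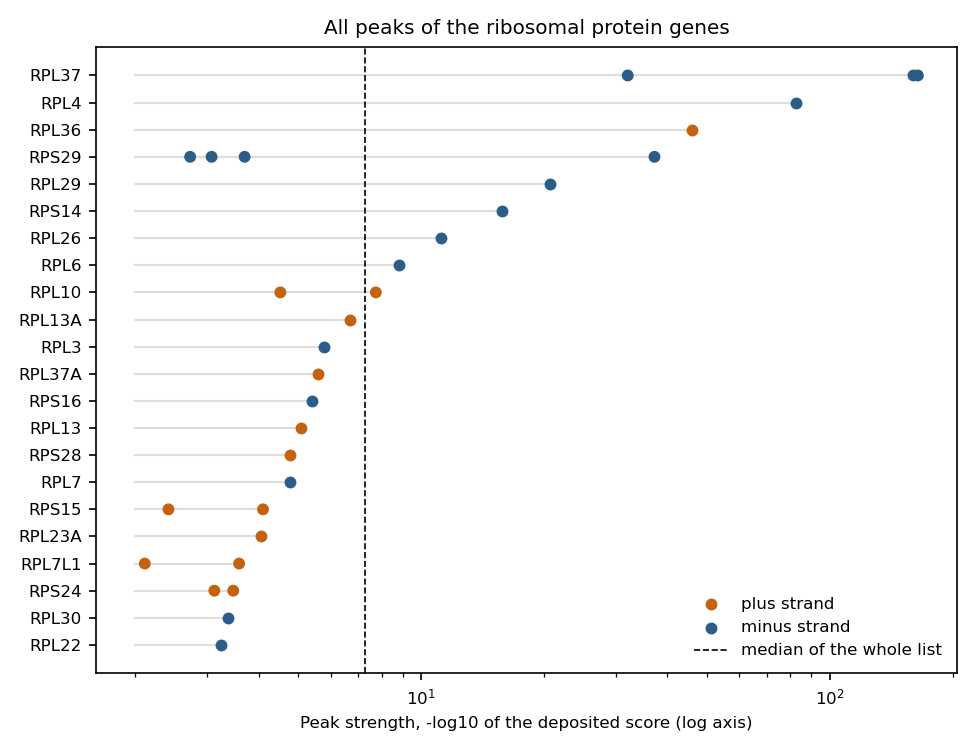
All 31 peaks of the 22 ribosomal protein genes, with the −log10 of the deposited score on a log x axis (a larger value is a stronger peak), genes in rows and colour for the strand. Peaks of 9 genes lie to the right of the dashed line, the median of the whole list, of which 7 are minus-strand genes.

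Large subunit genes held the strongest peaks. RPL37, which encodes a zinc-binding protein of the large subunit, was the gene with the smallest score. Its peak in 2 blocks at chr5:40827703-40831363 (290 spliced bases, minus strand) had a score of 1.0e-164. A second at chr5:40827602-40828052 (451 bases) had 1.0e-160, and overlapped the first. The last, at chr5:40825502-40825772 (271 bases, 1.0e-32), lay 240 bases from the 3′ end of the span. A smallest score at or under that of RPL37 was found in 11.4% of protein-coding genes with a peak, and in 16.4% of those with peaks on the minus strand.

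RPL4, a protein that lines the tunnel through which the new peptide leaves, had 1 peak at chr15:66499065-66499514 (450 bases, minus strand, 4.0e-83), at 81.4% of its span. RPL36, also of the large subunit, had the strongest member peak on the plus strand, at chr19:5691546-5691756 (211 bases, 1.0e-46), ending 119 bases before the 3′ end of the gene. Only 8.82% of protein-coding genes with plus-strand peaks had one as strong. A minus-strand peak of LONP1, the mitochondrial protease, lay next to it at chr19:5691834-5692104 and was listed at 0, but the 2 peaks shared no base. The peak of RPL29 at chr3:51993552-51993699 (148 bases, minus strand, 2.0e-21) ended 30 bases from the 3′ end of the gene. In RPL4, RPL36 and RPL29 the peak thus lay in the final 20% of the span.

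Other large subunit genes had their peak elsewhere. RPL26, which also binds the p53 mRNA, had a peak at chr17:8382974-8383183 (210 bases, minus strand, 6.3e-12) that began 10 bases past the 5′ end of the gene, still within the TOP tract. RPL6 had a peak of 210 spliced bases in 2 blocks at chr12:112409443-112410330 (minus strand, 1.5e-09), at 65.5% of the span. This RPL6 peak lay between annotated starts at chr12:112411442 and chr12:112409285, and so upstream of the latter. RPL10, a protein added late in the maturation of the large subunit, had a peak in 2 blocks at chrX:154398068-154398937 (600 bases, plus strand, 1.8e-08) that began 3 bases past its 5′ end. Of these 600 bases, 552 lay under a peak of ENSG00000280195, on the minus strand, with the smaller score of 1.3e-11. A second RPL10 peak at chrX:154389955-154397286 (151 bases, 3.0e-05) lay upstream of the gene, and 133 of its bases were shared with another peak of ENSG00000280195 (1.1e-08). The list alone does not say from which of the 2 strands the RNA in these regions came.

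Among small subunit genes, RPS29 and RPS14 had peaks at or under the list median. RPS29, a zinc-binding protein mutated in some families with Diamond-Blackfan anaemia, has the longest span of the members. Its strong peak at chr14:49577303-49577782 (480 bases, minus strand, 6.3e-38) lay at 76.4% of the span, and 391 of its bases were shared with a same-strand peak of the pseudogene RPL32P29 (6.3e-39). Its other 3 peaks were weak, with scores of 2.0e-04, 8.5e-04 and 1.9e-03, and began close to the 5′ end of the gene. One of them, chr14:49598927-49598986, was upstream of the gene, and all 60 of its bases were shared with a plus-strand peak of LRR1. RPS14, lost with the long arm of chromosome 5 in a form of myelodysplastic syndrome, had 1 peak at chr5:150443860-150444100 (241 bases, minus strand, 1.6e-16), at 81.1% of the span.

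The other 13 genes had only peaks above the list median. The large subunit genes among them were RPL13A (1 peak, 2.1e-07), RPL3 (1, 1.7e-06), RPL37A (1, 2.6e-06), RPL13 (1, 8.1e-06), RPL7 (1, 1.7e-05), RPL23A (1, 8.9e-05), RPL7L1 (2, 2.6e-04), RPL30 (1, 4.2e-04) and RPL22 (1, 5.8e-04). RPL3 helps to form the peptidyl transferase centre, RPL23A lies at the exit of the tunnel and RPL7L1 is a paralog of RPL7. The small subunit genes were RPS16 (1 peak, 3.9e-06), RPS28 (1, 1.7e-05), RPS15 (2, 7.9e-05) and RPS24 (2, 3.4e-04). All of these are core proteins of the small subunit.

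Of the 31 peaks, 6 (19.4%, interval 9.19 to 36.3%) lay wholly outside the RefSeq span of their gene, against 1.91% of the peaks of all protein-coding genes. Upstream were 5, those of RPL3, RPL22 and RPS28 and 1 each of RPL10 and RPS29, or 16.1% (7.09 to 32.6%) against 1.04%. The peak of RPL3 began 676 bases before the gene, that of RPS28 219 bases and that of RPL22 1151 bases before it. The remaining peak, of RPL37A, ended 25371 bases past the 3′ end, inside the span of a long non-coding RNA. The authors used GENCODE annotation, whereas the spans here are those of RefSeq. Whether these peaks lie in exons that only GENCODE gives to the genes was not tested. Peaks that shared a base with a peak on the other strand numbered 5 (16.1%, 7.09 to 32.6%), against 7.55%.

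Inside the gene span, peaks of ribosomal protein genes were found near both ends and between them. Of the 25 peaks inside the span, 5 (interval 8.86 to 39.1%) had their midpoint in the final 10% of it, against 37.4% of 15939 peaks of protein-coding genes, a share within the interval. These were peaks of RPL29, RPL37 and RPL23A and both peaks of RPS24. The RPL23A peak shared 12 bases with 1 minus-strand peak of TLCD1 and 2 with another, both listed at 0. In the final 20% were 9 (36.0%), against 50.4%, and the first 10% held 4 (16.0%), against 12.4%. The 4 early peaks belonged to RPL26, RPS15, RPL7 and RPS29. The median position was 72.4% of the span from the 5′ end, against 80.4%. The span includes introns, so that position in the spliced mRNA is not given.

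**Figure D3:**
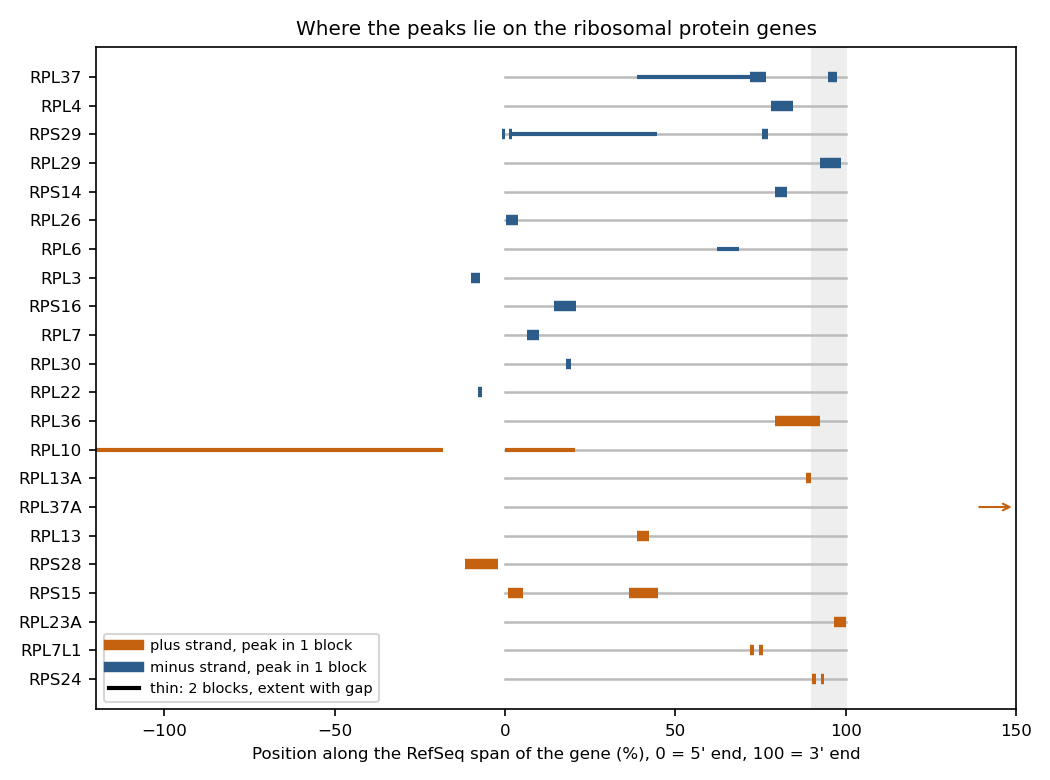
Each peak of the 22 genes drawn along the RefSeq span of its gene (x axis, % of span from the 5′ end), in orange for the plus and blue for the minus strand, with thin bars for peaks in 2 blocks and grey shading over the final 10%. The axis stops before the far end of the upstream RPL10 peak, and the arrow stands for the RPL37A peak beyond its 3′ end. The midpoints of 5 peaks lie in the shaded part, and the bar of RPL36 reaches into it.

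**Figure D4:**
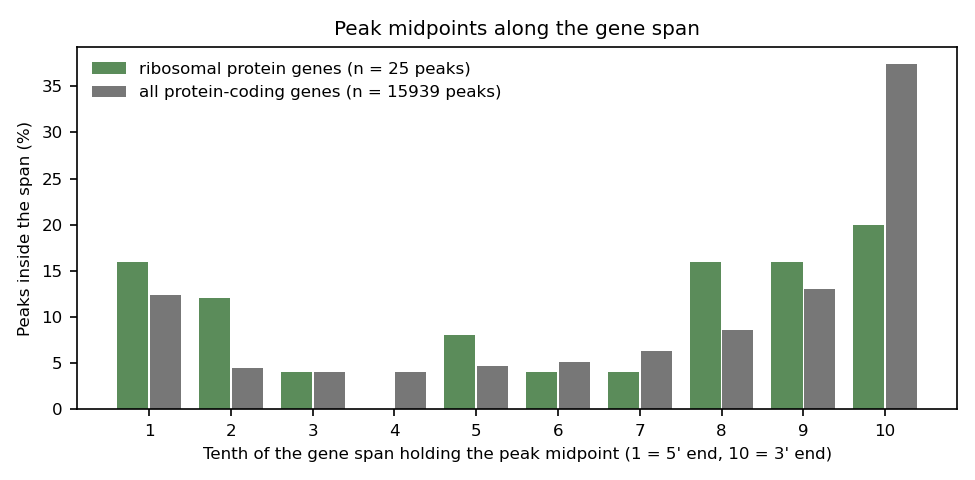
Percent of peaks inside the gene span (y axis) in each 10% of the span from the 5′ to the 3′ end (x axis), for 25 peaks of ribosomal protein genes (green) and 15939 of all protein-coding genes (grey). The final 10% holds 5 of the 25 peaks and 37.4% of all, and the first 10% holds 16.0% and 12.4%.

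The m6A methyltransferase modifies the A of the motif RRACH, that is AAAC or AGAC or GAAC or GGAC with any base but G after it, in all 12 forms of 5 bases. These were sought on both strands and could overlap. They could be read only where a peak met a promoter window, from 250 bases before to 50 bases after an annotated start. RPL10 and RPL6 had a motif on their own strand there, shown in capitals in windows of 30 bases, the second of them with 2 motifs that overlap. The RPS28 peak is added as a peak with motifs on the opposite strand and none on its own.
RPL10, chrX:154398299-154398328, plus strand: ccgtcttcgacaGGACTctatggttcttac
RPL10, chrX:154398323-154398352, plus strand: tcttacgcgcgcAGACAGACCgcctatata
RPL6, chr12:112409472-112409501, minus strand: cctacaggggtcGGACAtgtccaaggctaa
RPL6, chr12:112409506-112409535, minus strand: tcgccatccGAACCtggagggcatccagtc
RPS28 on the strand of NDUFA7, chr19:8321306-8321335, minus strand: ccagcggctgcgGAACTgggcgtccggggt
RPS28 on the strand of NDUFA7, chr19:8321279-8321308, minus strand: ggtgcgcggggcGGACAgggctgcaccatg
The 180 bases of the RPS28 peak held no motif on the RPS28 strand and 2 on the opposite strand, and both lay within the span of NDUFA7, a subunit of mitochondrial complex I. Of its bases, 68 lay under a peak of NDUFA7 (6.3e-49) and 72 under one of ENSG00000167774 (4.0e-96), both on the minus strand. Windows of the same place and length held a motif in 81.6% of the 22198 annotated starts on the own strand and 82.9% on the opposite strand. For the 300 bases around a RPL10 start the share was 93.2%, and for the 93 bases of RPL6 it was 64.0%. The RPL6 motifs lay upstream of its start at chr12:112409285, and the RPL10 motifs upstream of its starts at chrX:154398377 and chrX:154398497. The parts of peaks in windows of RPL26 (40 bases), RPS15 (29 bases) and RPS29 (34 bases) held none on their own strand. Windows with one numbered 6654 of 22198 for the place of RPL26 and made up 22.2% and 30.9% for RPS15 and RPS29. On the opposite strand the RPL6 and RPS29 parts held 1 motif each. The RPL10 parts held 1 and 4 there in the overlapping windows of 300 bases, against 3 on the own strand in each. In the 47 bases past the first RPL10 start there was 1 on the opposite strand and 0 on the own strand. A match is a run of letters and not a methylated site.

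No peak was listed for 64 ribosomal protein genes, 36 of the large and 28 of the small subunit. By strand 33 were on the plus strand, 18 on the minus strand and 13 had no strand in the start table. The large subunit genes without a peak included the stalk proteins RPLP0, RPLP1 and RPLP2, which recruit the elongation factors, and RPL5 and RPL11, which bind the MDM2 ubiquitin ligase when ribosome assembly fails. Also without a peak were RPL7A, RPL8, RPL9, RPL10A, RPL10L, RPL12, RPL14, RPL15, RPL17, RPL18, RPL19, RPL21, RPL22L1, RPL23, RPL24, RPL26L1, RPL27, RPL27A, RPL28, RPL31, RPL32, RPL34, RPL35, RPL35A, RPL36A, RPL38, RPL39, RPL39L, RPL3L and RPL41. The small subunit genes included RPS6, the target of the S6 kinases, RPS19, the gene most often mutated in Diamond-Blackfan anaemia, RPS27A, made as a fusion to ubiquitin, and RPSA, related to the laminin receptor. Further ones were RPS2, RPS3, RPS3A, RPS4X, RPS4Y1, RPS4Y2, RPS7, RPS9, RPS10, RPS12, RPS13, RPS15A, RPS18, RPS20, RPS21, RPS23, RPS25, RPS26, RPS27 and RPS27L. In 3 of the 64 a peak assigned to another gene lay over the span, namely TBC1D8 on the opposite strand of RPL31 (1.0e-138), MGC16275 opposite RPL38 (1.3e-07), and RPL26L1-AS1 and ENSG00000254295 at RPL26L1. Over the other 61 no peak of any gene was listed. Small nucleolar RNAs, which guide the modification of ribosomal RNA, lie in the spans of many members. In the 8 hosts that had a peak, 0 of 20 such RNAs were overlapped by a member's peak. Reads of poly(A) RNA had been aligned to the transcriptome, so a peak could hardly fall on an RNA inside an intron. The count therefore says nothing about m6A on these RNAs.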

How the data were processed

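m6A-seq had been carried out on poly(A) RNA of MDA-MB-231 cells with 2 input and 2 anti-m6A libraries. The authors aligned reads with STAR to the human transcriptome of GENCODE (hg38 per the labels), called peaks with exomePeak and filtered them on fold enrichment and FDR. The deposited list combines the libraries and gives each peak a score, read here as the authors' p-value, although it may be an FDR. It holds no read counts, so the depth behind a peak is unknown.

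Peaks were matched to genes by Ensembl ID (10103 of 10140 gene IDs matched). Gene type, span and start sequences came from RefSeq on GRCh38.p14. The RefSeq promoter table gave the strand and start sequences for 69 of the 86 ribosomal protein genes and 15842 of 20052 protein-coding genes. Overlap required 1 shared base. Shares carry 95% Wilson intervals, which cover counting error only. Since the list has no value per library, no test between samples was run and no p-value was computed. Calculations were made in Python 3.11.15 with pandas 2.3.3, numpy 2.4.6, scipy 1.17.1 and matplotlib 3.10.9, and the counting functions were tested on simulated data. Every ribosomal protein gene with a peak is named, and a few genes are not reported here by name. Members and lists were chosen with earlier results of these data known. UTRs, coding sequences and proteins were not analysed here.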

Additional observations from a re-analysis of the deposited data

How the results depend on the processing

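With peaks at or under the list median score, the share of ribosomal protein genes with a peak was 10.5% and the number of their peaks was 11 in place of 31. The share was 9.30% when peaks overlapped by one of the other strand were also left out, a setting chosen after seeing the data. For all protein-coding genes the share was 26.6% at or under the median, 38.7% without opposite-strand overlaps, 38.9% with peaks wholly inside the gene, 29.3% and 55.6% for plus-strand and minus-strand genes, 35.9% for genes up to the longest member span and 24.7% for genes up to the median member span, the last chosen after seeing the data. Other alternatives moved the members' share between 20.9% and 33.3%, within its interval. The share in the final 10% of the span ranged from 18.2% to 23.8%, and merging overlapping peaks left 29 peaks. The alternative that limits genes by protein length was not run, since it needs protein sequences. No paired analysis was possible because there is no value per library. Unknown depth and expression limit every share.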

Other observations

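Processed pseudogenes of ribosomal protein genes are numerous copies whose reads can be hard to tell from those of the parent gene. Of 1599 pseudogenes with a ribosomal protein name, 20 had a peak (1.25%, interval 0.811 to 1.92%), with 20 peaks on the minus and 2 on the plus strand. The share over all pseudogenes was not counted. The strongest was RPS26P19 (1.0e-137), whose parent RPS26 had no listed peak, followed by RPL32P29 (6.3e-39), RPL39P5 (1.0e-27) and RPL12P28 (7.9e-12), whose parents RPL32, RPL39 and RPL12 also had none. The RPL32P29 peak shared 391 bases with the RPS29 peak on the same strand. The peaks of RPL39P5 (210 spliced bases) and RPL12P28 (346 spliced bases) were in blocks with a gap. Of the 16 parent genes of pseudogenes with a peak, 5 had a peak of their own (RPL4, RPL7, RPL13, RPL23A and RPL30) and 11 did not. Among all 86 ribosomal protein genes, 22 had a peak (25.6%). How the authors' alignment divided reads between copies was not tested.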
